A study of Schizosaccharomyces pombe with 6 samples.

Results

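Rapalink-1 was compared with no treatment in wild-type fission yeast (Schizosaccharomyces pombe, strain 972 h-), across all genes with measurable mRNA. The comparison used 4 of the 6 libraries of the series, chosen by their labels: 2 untreated libraries and 2 libraries of cells given 100 nM rapalink-1 for 5 h. The other 2 libraries came from cells given 100 nM rapamycin for 5 h, and their values are given where the drugs are set against each other. They also entered the filter and the spread that all 3 groups share in the fit, and a fit of the 2 conditions alone called 2139 genes against 2291. All cells grew in rich YES medium with 3% glucose at 32 °C, from 2 mother cultures that were each split over 3 flasks at drug addition. The labels do not tie a library's number to a mother culture and name no vehicle for the untreated flasks. The p-values below measure the spread between these libraries, part of which may be technical. Of 7268 genes in the deposited table, 4847 had a mean of at least 1 FPKM (fragments per kilobase of gene model, scaled by library size) over the 6 libraries and were tested.

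TOR is a protein kinase that couples growth to nutrients, and it works in a pair of complexes, TORC1 and TORC2. In fission yeast, active TORC1 keeps ribosome production and translation high and holds back autophagy, nitrogen scavenging and sexual differentiation, and part of this runs through the GATA transcription factor Gaf1. Rapamycin binds the small protein FKBP12 (Fkh1) and, with it, blocks TORC1 at a site away from the catalytic centre. Rapalink-1 is rapamycin joined by a linker to sapanisertib, an inhibitor that competes with ATP at the kinase's active site.

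Libraries held between 16527483 and 26321118 reads, of which 99.29% to 99.46% fell on protein-coding genes, and the 10 most abundant genes took at most 7.91% of any library. The strain is of the M (h-) mating type. Of the M-cell genes, the M-factor gene mfm2 stood at 52.2 and 55.1 FPKM untreated, and mam1 and mam2 also lay above the P-cell genes. The other M-factor genes did not: mfm1 lay below both P-cell genes untreated, and mfm3 is listed at 0. The P-cell genes were low, with map2 (P-factor) at 3.02 and 3.24 FPKM and map3 (M-factor receptor) at 3.36 and 2.58 FPKM, and models of other genes cover 35.3% and 59.7% of them. RNA was selected by polyA and the counting strand is not given in the sources used here, so values of overlapped models are uncertain, and this share is named where it exceeds 25%. Of 417 protein-coding models that lie wholly within other models, 374 were listed at 0 in all 6 libraries, against 63 of the 4728 others. Bulk RNA cannot tell fewer cells of a kind from less RNA per cell.

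Fold changes below are fitted by limma on log2(FPKM + 1), which makes the changes of weakly expressed genes look smaller than they were. A gene is called higher or lower where its p, adjusted by Benjamini-Hochberg over the 4847 genes, was at most 0.05. By this rule 24.8% of tested genes were higher and 22.5% lower with rapalink-1, and in 36.6% and 38.6% of genes both rapalink-1 libraries lay above or below both untreated ones. The higher genes made up 52.4% of those called, but 38.8% (943 higher, 1488 lower) after quantile normalization, which makes the distributions of all libraries equal. Set against rapamycin in the same fit, rapalink-1 gave 19.7% of genes higher and 17.4% lower, and the share of higher genes among these was 53.1%, or 41.5% after quantile normalization. The smallest two-sided permutation p for 2 against 2 libraries is 0.333, so each call rests on a spread estimated across genes. The response was asymmetric in size. The share of genes called higher by at least 2-fold was 3.18% (154 genes), and the share called lower by at least 2-fold was 0.0825% (4 genes). Those 4 were cat1, described below, and, chosen after their values were seen, the 18S rRNA gene SPRRNA.43, the non-coding RNA SPNCRNA.189 (from 5.07 and 4.06 to 1.33 and 1.198 FPKM) and the wholly overlapped snoZ15 (from 9.70 and 8.46 to 2.97 and 4.83 FPKM). Together the 154 genes held 1.05% and 1.198% of the reads of the untreated libraries and 5.20% and 4.52% of those with rapalink-1, against 1.31% and 1.39% with rapamycin. By biotype they comprised 130 protein-coding genes, 20 non-coding RNAs, 2 pseudogenes, 1 rRNA gene and 1 snRNA gene. The descriptions of 21 named a transporter or permease, as did those of 171 of all 4847 tested genes. Those of 23 named a dehydrogenase, reductase, oxidase or oxygenase, and the share of such descriptions over all tested genes was not counted. Calls did not spread evenly over levels. Of the 1212 genes with the lowest mean FPKM 264 were higher and 106 lower, and of the 1212 with the highest 378 were higher and 422 lower. The filter let in 53 genes whose untreated mean was under 1 FPKM, and 16 of these are among the 154.

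**Figure D1:**
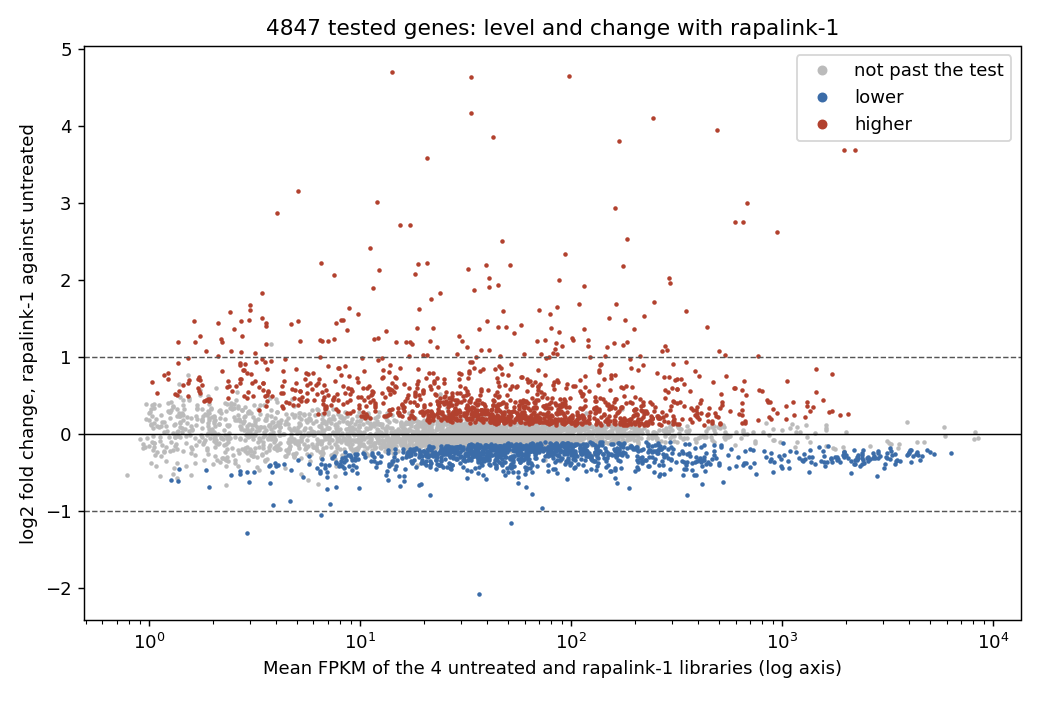
Each point is 1 of the 4847 tested genes, with its mean FPKM over the 4 untreated and rapalink-1 libraries (x, log axis) and its log2 fold change (y); red and blue mark genes called higher and lower, and dashed lines mark 2-fold. The 154 genes above the upper line reach a log2 fold change of 4.70, while only 4 lie below the lower line.

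Of the 12 coding genes with the largest increases, 8 are described as transporters or enzymes of nitrogen compounds, and the others are mmf2, SPAC1039.02 and the mating genes mfm1 and mei2. The share of such descriptions over all tested genes was not counted. The lists of amino acid permeases, peptide transport, pyrimidine salvage, purine catabolism, ammonium and glutamate, and arginine breakdown were read from symbols or words in the gene descriptions. Their members did not move uniformly. Of 26 genes described as amino acid permeases, 24 were tested, 14 were higher (8 by at least 2-fold), 7 were lower and 3 passed in neither direction, with a median log2 fold change of 0.34 against -0.01 over all tested genes.

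Among the permeases, isp5 (chromosome I, 5465377 to 5468649), a broad-range amino acid permease gene, stood at 6.06 and 7.10 FPKM in the untreated libraries and at 208 and 169.8 FPKM with rapalink-1 (log2 fold change 4.65, SE 0.10, adjusted p = 3.02e-08). With rapamycin the gene stood at 8.09 and 8.54 FPKM. SPBPB2B2.01, a predicted amino acid transporter near the end of chromosome II (4457661 to 4459842), went from 2.17 and 3.16 to 71.4 and 57.8 FPKM. SPAC1039.01, a further predicted permease that lies close to isp5, rose from 33.5 and 40.3 to 314 and 259.7 FPKM, and SPCC794.04c from 6.30 and 6.40 to 32.2 and 27.7 FPKM. Against rapamycin, the 4 genes were higher by 4.35, 4.21, 3.21 and 1.22 on the log2 scale, each past the test. The opposite direction was led by cat1 (chromosome I, 5489134 to 5491791), which encodes a transporter of the cationic amino acids arginine and lysine. It fell from 73.0 and 71.2 FPKM untreated to 28.8 and 35.0 FPKM (log2 fold change -1.15, SE 0.08, adjusted p = 9.74e-06), and it was the only protein-coding gene called lower by 2-fold. With rapamycin cat1 measured 82.1 and 77.5 FPKM. The genes lie on the same arm, isp5 110.5 kb and cat1 87.3 kb from the last gene of chromosome I.

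In the peptide transport list 4 of 5 genes were tested and all 4 were higher, of which 3 encode transporters and isp7 an enzyme. The oligopeptide transporter gene isp4 (chromosome II, 1550293 to 1553467) stood at 19.5 and 23.5 FPKM untreated and at 345 and 281 FPKM with rapalink-1 (log2 fold change 3.81, SE 0.11, adjusted p = 7.98e-08). The di- and tripeptide transporter gene ptr2 went from 79.5 and 99.1 to 142 and 121 FPKM and the glutathione transporter gene pgt1 from 26.7 and 29.0 to 37.6 and 34.8 FPKM. The product of isp7 is an oxygenase that is known in fission yeast to control amino acid permease genes. It measured 48.1 and 76.0 FPKM untreated, 156 and 127 FPKM with rapalink-1 and 22.1 and 32.1 FPKM with rapamycin, so that the 3 conditions did not overlap. The drugs moved isp7 to opposite sides of the untreated level, with log2 fold changes of 1.21 for rapalink-1 and -1.15 for rapamycin, both past the test. The rapamycin value of ptr2 (53.1 and 58.4 FPKM) also lay below untreated (log2 fold change -0.66, adjusted p = 0.00616). The remaining member, opt3, lies wholly within another model and is listed at 0.

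The list of uracil and pyrimidine salvage, called pyrimidine salvage here, had the largest median rise. Not all of its members are described as salvage genes (urg1 and urg3 are not). All 7 tested members of 8 were higher than untreated and higher than with rapamycin, 6 of them by at least 2-fold. Their median log2 fold change was 2.75. These 8 genes held 0.152% and 0.200% of reads untreated, 0.149% and 0.167% with rapamycin, but 1.71% and 1.41% with rapalink-1. The genes urg1, urg2 and urg3 are known in fission yeast for strong induction by uracil. At chromosome I, 1835270 to 1837060, urg1 (a predicted GTP cyclohydrolase) went from 219 and 357 FPKM to 3919 and 3325 FPKM (log2 fold change 3.69, SE 0.19, adjusted p = 1.73e-06). The predicted uracil phosphoribosyltransferase gene urg2 rose from 267 and 375 to 4479.9 and 3707 FPKM and urg3, of a domain family without a known role, from 152 and 183 to 1238 and 1022 FPKM. In each of the 3 genes untreated replicate 2 was above untreated replicate 1, by less than the distance to the rapalink-1 libraries. Uracil enters the cell through the permease Fur4, and fur4 rose from 75.5 and 76.7 to 280.4 and 218 FPKM, with no change past the test for rapamycin at 74.7 and 73.3 FPKM. SPAC1399.04c, also a predicted uracil phosphoribosyltransferase, stood at 129 and 179 FPKM untreated, 1171 and 898 FPKM with rapalink-1 and 81.8 and 91.1 FPKM with rapamycin. With rapamycin that gene was lower than untreated (log2 fold change -0.81, adjusted p = 0.0111). The predicted uracil or uridine permease SPBC1683.05 (33.6% overlapped) and the predicted uridine kinase SPCC162.11c rose from 76.9 and 78.9 to 247 and 201 FPKM and from 63.0 and 64.9 to 107 and 91.7 FPKM. The uridylate kinase gene SPCC1795.05c lies within another model and is listed at 0. The genes urg2, urg3, urg1, SPAC1399.04c and fur4 sit with toe1 in a stretch of 13.4 kb on chromosome I (1830609 to 1843995), in which all 6 neighbouring tested coding genes were higher by at least 1.5-fold. Of these toe1, named after its values were seen, rose least, from 4.65 and 4.56 to 8.15 and 8.14 FPKM, and 82.6% of it is overlapped.

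**Figure D2:**
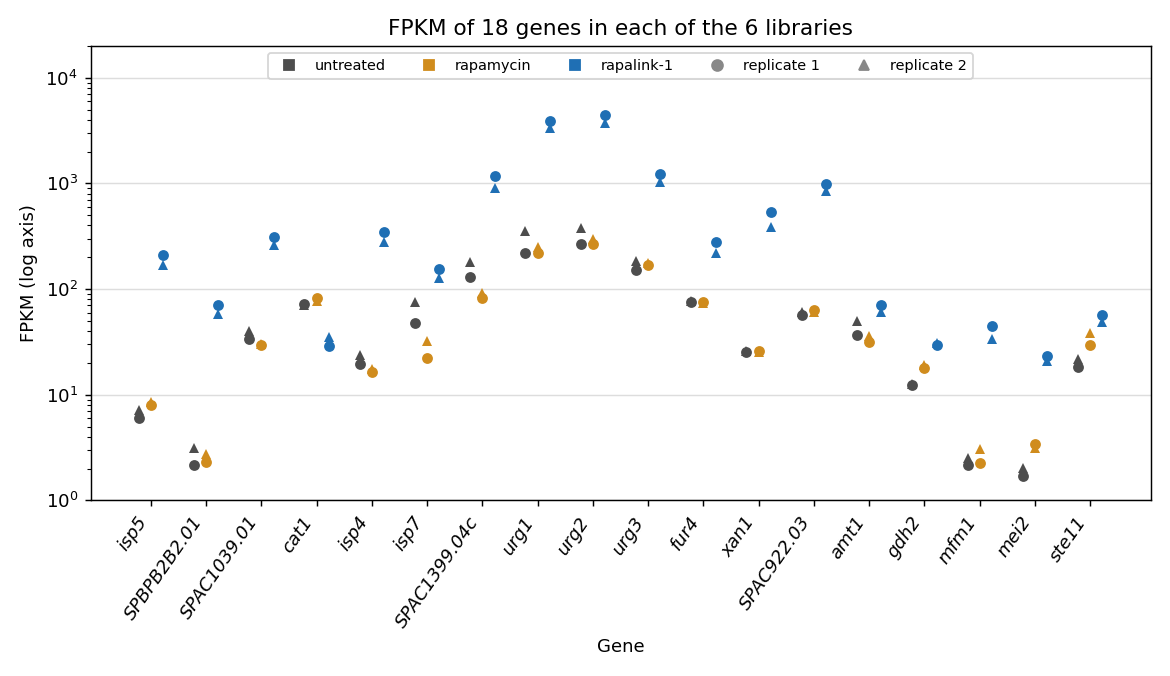
FPKM (log axis) of 18 genes of nitrogen use and mating in each of the 6 libraries, with grey for untreated, orange for rapamycin and blue for rapalink-1, circles for replicate 1 and triangles for replicate 2. The genes were picked from those called. Members of the same lists that fell (amt2) or did not pass the test (glt1, SPBC24C6.04, map2, map3) are not drawn. The blue points lie above the grey ones in every gene drawn but cat1, and the rapamycin points of isp7 (22.1 and 32.1 FPKM) lie below both.

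Purine catabolism turns xanthine into urate, allantoin and finally ammonium. Of 9 genes, 8 were tested, 5 were higher (3 by at least 2-fold) and 1 lower, and none of the 8 was lower than with rapamycin. The first enzyme of this route in fission yeast is the xanthine dioxygenase Xan1, and xan1 (chromosome III, 2079421 to 2080662) rose from 25.4 and 26.1 FPKM to 537 and 391 FPKM (log2 fold change 4.11, SE 0.12, adjusted p = 1.02e-07). The predicted uricase gene SPCC1223.09 rose from 16.3 and 20.0 to 73.6 and 69.1 FPKM and the predicted allantoicase gene SPAC1F7.09c from 39.5 and 41.9 to 142 and 118 FPKM. With rapamycin the uricase gene stood at 15.7 and 18.5 FPKM and the allantoicase gene at 39.3 and 38.7 FPKM, neither past the test against untreated. The ureidoglycolate hydrolase gene dal1 moved less, from 11.98 and 10.6 to 19.1 and 16.5 FPKM. The enzymes SPAC922.03 and SPAC869.04, which act on other nitrogen compounds, are given here because they were among the 12 largest increases. Enzymes that release ammonium were not read as a list, and the asparaginase gene SPAC977.12 was among the 12 largest decreases. SPAC922.03, a predicted deaminase (chromosome I, 5476698 to 5478012), went from 56.8 and 61.1 to 991 and 852 FPKM. SPAC869.04, described as formamidase-like (chromosome I, 5511137 to 5512369), was counted 3 and 2 times untreated, 13 and 13 times in the rapamycin libraries and 672 and 477 times in the rapalink-1 libraries. Its fitted log2 fold change of 4.70 depends on the pseudocount and ranged from 4.48 to 8.01 over the alternatives. The neighbouring urea transporter gene SPAC869.03c went from 0.22 and 0.189 to 8.87 and 6.76 FPKM.

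Ammonium and glutamate genes changed less and in both directions: of 8 tested, 5 were higher, 1 lower and 2 neither. The ammonium transporter gene amt1 rose from 36.6 and 50.0 to 71.2 and 60.5 FPKM, while amt2 (71.0% overlapped) fell from 13.7 and 13.9 to 9.49 and 10.4 FPKM. The NAD-dependent glutamate dehydrogenase gene gdh2, whose enzyme breaks glutamate down, rose from 12.5 and 12.7 to 29.7 and 31.0 FPKM (log2 fold change 1.21). The NADP-dependent gdh1, which runs towards synthesis, had a log2 fold change of 0.17. Its call was lost when either rapalink-1 library or untreated replicate 1 was left out (0.10 to 0.19 without them). It was also lost under quantile normalization (0.10), with no filter (0.16) and without the trend (0.17). Glutamine synthetase (gln1) rose from 338 and 354 to 466 and 394 FPKM but measured 241 and 231 FPKM with rapamycin, which was lower than untreated (log2 fold change -0.54, adjusted p = 0.00277). Glutamate synthase (glt1) measured 66.7 and 67.2 FPKM untreated and 67.5 and 66.4 FPKM with rapalink-1 and did not pass the test. Proline dehydrogenase (SPCC70.03c), the first step of proline breakdown, rose from 179 and 187 to 407 and 367 FPKM, whereas the next enzyme of that route (SPBC24C6.04) stood at 653 and 671 FPKM untreated and 643 and 669 FPKM with rapalink-1. The ammonium transporter gene amt3 was under the filter.

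Arginine can be broken down by arginase to ornithine and urea, or through agmatine, which agmatinases split into putrescine and urea. All 3 genes described as agmatinases were higher with rapalink-1. SPBC8E4.03 (27.8% overlapped) rose from 59.9 and 66.7 to 306 and 273 FPKM, SPAPB24D3.03 from 44.3 and 44.0 to 126 and 107 FPKM, and SPAC11D3.09 (82.8% overlapped) from 1.34 and 1.51 to 4.23 and 3.82 FPKM. Their log2 fold changes were 2.18, 1.38 and 1.06, and all 3 were also higher than with rapamycin. The arginase genes went apart: car1 rose from 25.05 and 28.2 to 75.6 and 67.0 FPKM and the far more abundant aru1 (33.3% overlapped) fell from 386 and 406 to 287 and 286 FPKM. Ornithine transaminase (car2) fell from 884 and 888 to 596 and 631 FPKM. In polyamine synthesis, S-adenosylmethionine decarboxylase (spe2) fell from 244 and 244 to 181 and 191 FPKM, while ornithine decarboxylase (spe1) measured 213 and 211 FPKM untreated and 218 and 211 FPKM with rapalink-1 and passed in neither direction.

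GATA factors bind DNA at GATA boxes, so the bases upstream of the nitrogen genes are shown with the motif GATAA, which reads TTATC on the other strand, in capitals. Each line gives the 250 bases before the RefSeq gene start on ASM294v3, 5′ to 3′ towards the gene, for genes whose model in the files does not start further upstream. SPAC869.04 (chrI:5512386-5512635, minus strand) is shown for the steepest rise, xan1 (chrIII:2080663-2080912, minus strand) for purine use, and SPAC1399.04c (chrI:1840371-1840620, plus strand) and urg1 (chrI:1835004-1835253, plus strand) for the pyrimidine salvage list.
SPAC869.04: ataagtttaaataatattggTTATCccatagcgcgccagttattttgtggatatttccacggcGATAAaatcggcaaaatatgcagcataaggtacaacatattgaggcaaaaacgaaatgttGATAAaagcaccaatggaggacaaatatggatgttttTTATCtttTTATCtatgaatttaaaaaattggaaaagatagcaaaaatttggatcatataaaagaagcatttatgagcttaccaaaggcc
xan1: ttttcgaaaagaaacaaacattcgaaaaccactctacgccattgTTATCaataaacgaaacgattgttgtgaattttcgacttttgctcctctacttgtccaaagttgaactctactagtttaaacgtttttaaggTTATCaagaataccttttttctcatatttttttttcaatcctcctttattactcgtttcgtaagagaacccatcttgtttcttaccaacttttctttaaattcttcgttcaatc
SPAC1399.04c: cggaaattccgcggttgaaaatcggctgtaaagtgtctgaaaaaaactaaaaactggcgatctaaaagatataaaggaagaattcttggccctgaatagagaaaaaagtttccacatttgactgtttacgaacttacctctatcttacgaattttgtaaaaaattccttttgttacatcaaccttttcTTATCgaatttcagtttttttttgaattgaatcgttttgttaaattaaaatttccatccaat
urg1: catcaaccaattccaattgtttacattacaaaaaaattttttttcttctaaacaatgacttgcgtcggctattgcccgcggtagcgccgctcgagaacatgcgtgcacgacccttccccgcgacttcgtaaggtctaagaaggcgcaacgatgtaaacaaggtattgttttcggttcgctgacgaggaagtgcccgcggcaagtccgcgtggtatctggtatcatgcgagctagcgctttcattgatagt
SPAC869.04 has 5 matches, the nearest 78 bases from the gene start. The xan1 window has 2 and that of SPAC1399.04c has 1, 58 bases from the start. urg1, which rose by 3.69 on the log2 scale, has none in this window. A RefSeq model of another gene overlaps the window of SPAC869.04, and 1 overlaps that of urg1. GATAA is a short motif, and 54.2% of the windows of all 5104 protein-coding genes hold it on either strand. The share was 63.1% among the 130 coding genes higher by at least 2-fold and 75.8% among the 33 higher by at least 4-fold. Windows with 2 or more matches made up 18.5% of the 4312 tested coding genes, 32.3% of the 130 and 51.5% of the 33. By list, 79.2% of 24 amino acid permeases, 87.5% of 8 purine genes and 57.1% of 7 pyrimidine genes held the motif. In 3601 of 5105 coding genes the model in the files starts over 10 bases upstream of the RefSeq start, so for many genes this window is not the promoter alone. A match is a description of letters and not a binding site.

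**Figure D3:**
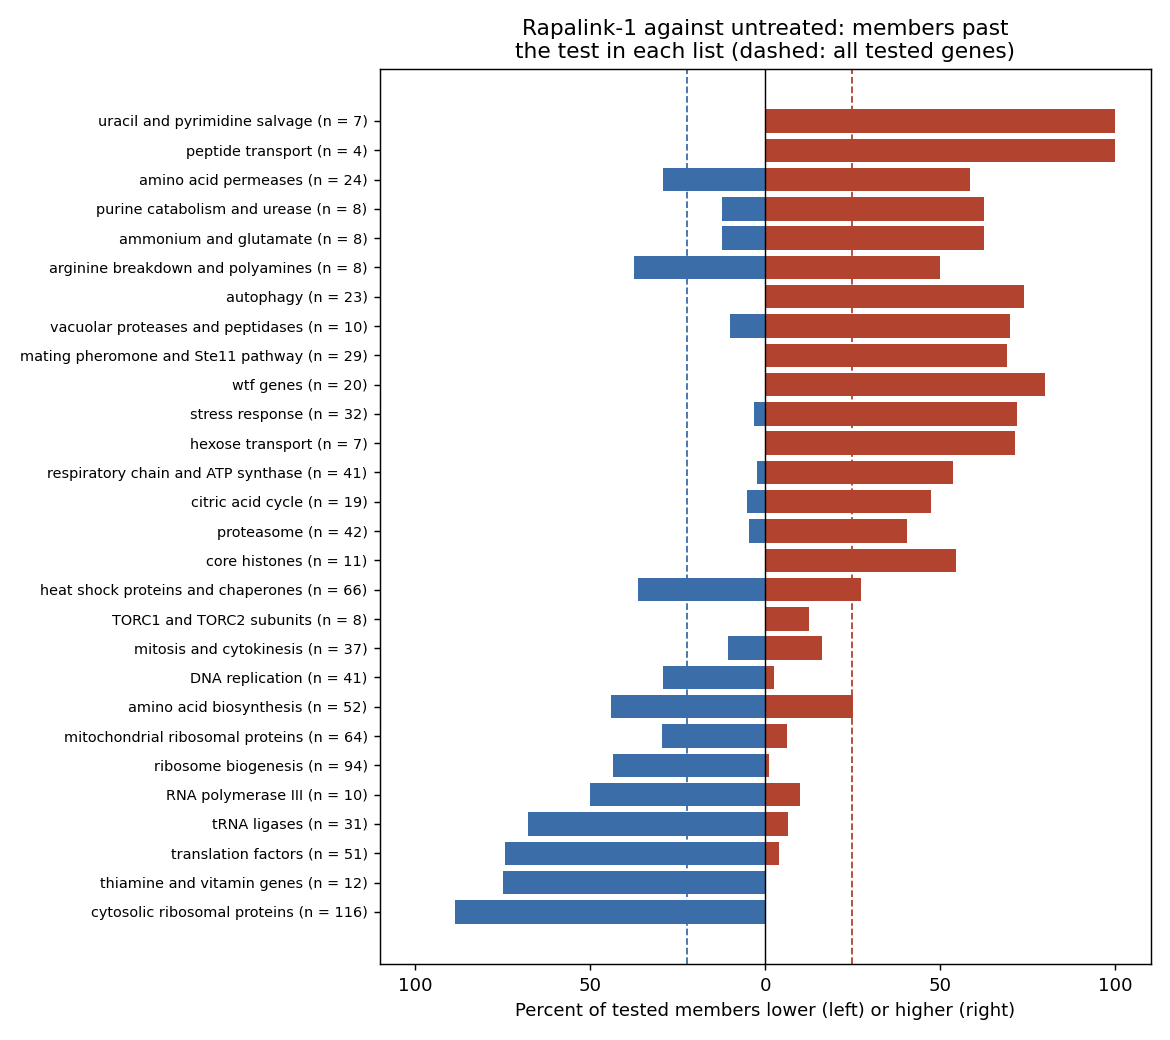
Percent of the tested members of 28 gene lists called higher (red, right) or lower (blue, left) with rapalink-1 against untreated; n is the number tested, and dashed lines mark 24.8% higher and 22.5% lower over all tested genes. Pyrimidine salvage and the peptide transport list, which holds isp7, stand at 100% higher, and cytosolic ribosomal proteins, with 103 of 116, at the lower end.

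The mRNAs of the TOR complexes themselves had fitted log2 fold changes between -0.09 and 0.19. Of 8 tested subunit genes of TORC1 and TORC2, 1 was called higher. The gene of the TORC1 kinase, tor2, measured 20.4 and 20.7 FPKM untreated and 21.1 and 22.3 FPKM with rapalink-1, and that of the TORC2 kinase, tor1, 16.2 and 17.3 FPKM and 15.4 and 17.2 FPKM. The libraries of tor1 overlapped between the groups, as did those of the Raptor gene mip1 (38.8 and 39.1 against 37.3 and 39.7 FPKM), the Rictor gene ste20 (28.6 and 29.7 against 27.3 and 32.5 FPKM) and sin1 (57.3 and 60.1 against 59.0 and 61.6 FPKM). The subunit called was toc1, with 50.0 and 52.3 FPKM untreated and 57.7 and 58.8 FPKM (log2 fold change 0.19, adjusted p = 0.0165), a call that was lost without untreated replicate 1 (0.16) or rapalink-1 replicate 2 (0.18). The TORC1 subunit gene tco89 (73.9% overlapped) measured 5.69 and 4.61 FPKM untreated and 6.03 and 5.83 FPKM with rapalink-1, and the shared subunit gene pop3 77.2 and 80.6 FPKM and 74.4 and 73.6 FPKM. None of these 7 passed the test, and bit61 is listed at 0. Among 33 tested genes that act upstream or downstream of TOR, 11 were higher and 2 lower (median log2 fold change 0.05), but 8 higher and 7 lower under quantile normalization (median -0.01). In the main fit that is 33.3% higher and 6.06% lower, beside 24.8% and 22.5% of all tested genes. Without rapalink-1 replicate 1 there were 7 higher, and without rapalink-1 replicate 2 there were 4 lower. The gene of Fkh1, the FKBP12 that rapamycin binds, rose from 573 and 582 to 725 and 702 FPKM and measured 594 and 556 FPKM with rapamycin. The Pol III repressor gene maf1 rose from 23.2 and 23.4 to 38.0 and 34.5 FPKM, the GATA-type factor gene SPCC1393.08 from 196 and 207 to 285 and 254 FPKM, and tsc1, which encodes part of the TSC brake on TORC1 (33.8% overlapped), from 25.5 and 28.0 to 32.1 and 32.9 FPKM. The mRNA of Gaf1 measured 58.1 and 60.1 FPKM untreated and 61.6 and 63.9 FPKM, a log2 fold change of 0.09 (adjusted p = 0.119) that missed the threshold.

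Of 26 autophagy genes, 23 were tested, 17 were higher, none lower and 6 neither, and 2 of these 6 had negative fold changes. The median log2 fold change was 0.37 and the highest 0.79. The latter belongs to atg1802, which went from 24.5 and 22.9 to 42.2 and 40.7 FPKM and encodes a phosphoinositide-binding protein of the autophagosome. The gene for Atg8, the ubiquitin-like protein that coats the autophagosome, rose from 83.7 and 80.0 to 131 and 121 FPKM, and with rapamycin to 99.3 and 92.1 FPKM. Those for Atg20 and Atg18a (atg1801, 66.2% overlapped) went from 14.0 and 14.6 to 23.6 and 23.3 and from 4.99 and 6.18 to 9.10 and 9.96 FPKM. Of 10 tested vacuolar proteases and peptidases, 7 were higher, 1 lower and 2 neither. The serine protease gene isp6, needed for protein turnover during nitrogen starvation, rose from 90.2 and 104 to 225 and 217 FPKM, and the carboxypeptidase gene SPAC24C9.08 from 108 and 110.1 to 252 and 233 FPKM. Carboxypeptidase Y (cpy1) and psp3 rose less, with log2 fold changes of 0.40 and 0.40, as did the peptidase genes aap1 (0.39), SPBC1711.12 (0.35) and ape2 (0.26). The gene that fell was fma2, a methionine aminopeptidase of the cytosol rather than the vacuole, from 189.9 and 191 to 143 and 154 FPKM. Neither sxa1 (399 and 393 against 372 and 379.5 FPKM) nor vps10 (6.48 and 7.23 against 5.71 and 6.99 FPKM, 72.5% overlapped) passed the test, and SPAC14C4.15c, a dipeptidyl peptidase gene, is listed at 0. Across 30 tested genes whose description contains the vacuole, 14 were higher and 5 lower, and SPCC162.06c, a vacuolar sorting gene, rose from 48.6 and 47.3 to 78.9 and 74.5 FPKM.

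Genes of mating and of the entry into meiosis rose in these cells of a single mating type, grown in rich medium. Of 33 genes, 29 were tested, 20 were higher (8 by at least 2-fold) and none lower, with a median log2 fold change of 0.50. Ste11, the transcription factor that starts sexual differentiation, had 18.1 and 21.7 FPKM untreated, 29.6 and 38.1 FPKM with rapamycin and 56.4 and 49.0 FPKM with rapalink-1. The 3 conditions did not overlap, and both steps passed the test (log2 fold change 0.74 for rapamycin, and a further 0.63 for rapalink-1 over rapamycin). mei2, a Ste11 target whose RNA-binding protein is needed for meiosis, rose from 1.71 and 2.006 to 23.1 and 21.0 FPKM (3.46 and 3.16 with rapamycin). The non-coding RNA with which Mei2 forms its nuclear dot, sme2, went from 2.63 and 4.19 to 30.5 and 24.5 FPKM (6.92 and 9.36 with rapamycin). M-factor, the pheromone that M cells secrete, is encoded by several genes. Of these mfm1 rose from 2.15 and 2.52 to 44.5 and 34.0 FPKM and mfm2 from 52.2 and 55.1 to 327 and 300.2 FPKM, and mfm3 is listed at 0. The M-factor exporter gene mam1 rose from 15.8 and 16.5 to 22.4 and 24.9 FPKM and the P-factor receptor gene mam2 from 24.3 and 24.3 to 41.2 and 40.4 FPKM. In contrast, the P-cell genes map2 (3.02 and 3.24 against 3.56 and 3.17 FPKM) and map3 (3.36 and 2.58 against 2.66 and 2.81 FPKM) overlapped between the groups.

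Ste11 binds the TR box, and mei2 (chrI:4515026-4515275, minus strand) is shown because its 250 bases before the RefSeq start hold the core ACAAAGA, which reads TCTTTGT on the other strand and is in capitals, 2 times, 153 and 131 bases from the start. Models of other genes overlap this window, 2 in RefSeq and 1 in the files.
mei2: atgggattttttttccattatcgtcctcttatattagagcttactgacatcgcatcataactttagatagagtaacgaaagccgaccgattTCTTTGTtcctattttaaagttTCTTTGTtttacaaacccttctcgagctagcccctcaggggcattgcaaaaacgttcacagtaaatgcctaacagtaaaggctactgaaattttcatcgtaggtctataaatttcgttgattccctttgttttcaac
The core was present in 44.8% of the windows of the 29 tested mating genes and in 6.05% of those of all tested coding genes.

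The largest group that fell encodes the translation machinery. Of 142 cytosolic ribosomal protein genes, 116 were tested, 103 were lower and none higher, and in 115 both rapalink-1 libraries lay below both untreated ones. Log2 fold changes ran from -0.55 to 0.13 with a median of -0.30 (-0.12 under quantile normalization, where 71 were lower and 3 higher). Without untreated replicate 1, 63 were called lower, and without rapalink-1 replicate 1, 64. In share of reads the 142 genes went from 21.2% and 20.8% untreated to 17.0% and 17.4%, with 19.9% and 18.8% in the rapamycin libraries. The 4 that fell most were rpl502, from 3381 and 3282 to 2196 and 2344 FPKM, rps402, from 1594 and 1545 to 1096 and 1114 FPKM, rpl702, from 1157 and 1138 to 833 and 840.2 FPKM, and rpl802, from 1262 and 1214 to 902 and 904 FPKM. All 4 were lower than with rapamycin too, as were 35 of the 116. Genes of near-identical copies such as these share sequence, and how reads were divided between copies is not given in the sources used here.

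**Figure D4:**
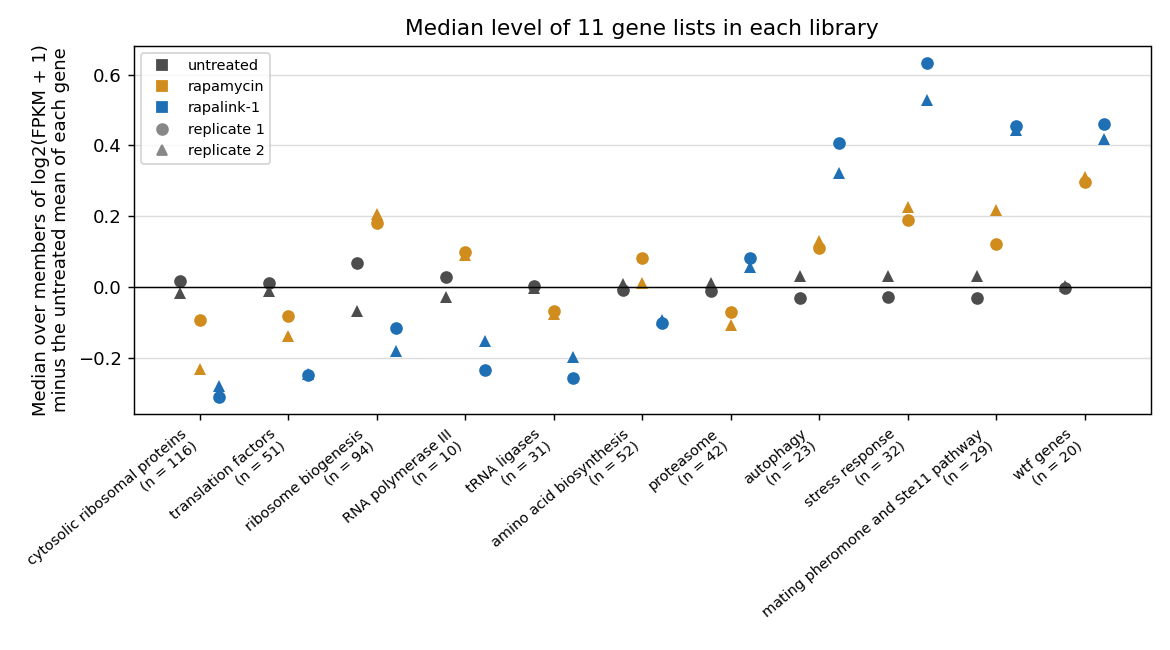
Median over the tested members of 11 lists of log2(FPKM + 1) minus each gene's untreated mean, per library; colours mark the condition and shapes the replicate. Rapalink-1 (blue) lies at -0.31 and -0.28 in cytosolic ribosomal proteins, and in ribosome biogenesis rapamycin (orange, 0.18 and 0.21) and rapalink-1 (-0.12 and -0.18) lie on opposite sides of 0.

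Most ribosomal protein genes of fission yeast carry a HomolD box in place of a TATA box. The window of rpl29 (chrII:3172063-3172312, plus strand) is printed as an example, chosen after its values were seen, with the HomolD core CAGTCAC, here on the other strand and so reading GTGACTG, in capitals 50 bases before the start.
rpl29: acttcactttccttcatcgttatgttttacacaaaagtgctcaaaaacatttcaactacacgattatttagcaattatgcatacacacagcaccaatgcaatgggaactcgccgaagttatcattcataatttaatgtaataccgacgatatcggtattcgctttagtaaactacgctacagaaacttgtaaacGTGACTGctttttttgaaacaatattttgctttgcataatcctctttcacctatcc
This core stood in 92.2% of the 116 tested ribosomal protein genes, in 4.54% of all tested coding genes and in 1 of the 130 coding genes higher by at least 2-fold.

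Ribosome biogenesis genes parted between the drugs. Of 94 tested, 41 were lower and 1 higher with rapalink-1 than untreated (23 lower and 3 higher without untreated replicate 1), with a median log2 fold change of -0.15. Against rapamycin 74 of the 94 were lower and 1 higher, with a median difference of -0.36. The rapamycin libraries themselves lay above untreated (median 0.20). Members with the largest falls were nop10 and nhp2, which encode parts of the box H/ACA particle that modifies rRNA, the ABCF-type ATPase gene SPBC16H5.08c, and fib1 (fibrillarin, an rRNA methyltransferase). nop10 went from 469 and 436 to 296 and 327 FPKM and fib1 from 1089 and 1030.1 to 732 and 768 FPKM. The log2 fold changes of nhp2 and SPBC16H5.08c were -0.52 and -0.52.

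Of 51 tested translation factor genes, 38 were lower and 2 higher. The eIF4A gene SPAC1006.07 fell from 2511 and 2447 to 1699 and 1782 FPKM, the elongation factor 2 gene eft202 from 814 and 811 to 576 and 622 FPKM, and the initiation factor genes SPAC56F8.03 and tif213 had log2 fold changes of -0.48 and -0.41. Among 31 tested tRNA ligase genes 21 were lower and 2 higher. The arginine and valine enzymes mrs1 and vrs1 had log2 fold changes of -0.50 and -0.48, and trl1, whose enzyme joins tRNA exons in splicing, -0.46. Among those that rose was a mitochondrial enzyme, the tyrosine ligase SPCC576.06c, from 19.0 and 21.9 to 27.2 and 27.6 FPKM (42.8% overlapped). Of 64 tested genes of mitochondrial ribosomal proteins 19 were lower, which is 29.7% and near the 22.5% of all tested genes. Another 4 were higher, which is 6.25% beside 24.8%. The median log2 fold change was -0.07, and it was -0.07 and -0.06 without untreated replicate 1 or 2, with fewer genes lower. The log2 fold changes of SPAC3A12.19, mrpl20 and rsm10 (78.5% overlapped) were -0.49, -0.40 and -0.45, and that of mrpl38, which rose, was 0.35. The call of rsm10 was lost without untreated replicate 2 (-0.34) or rapalink-1 replicate 2 (-0.34). RNA polymerase I, which makes the large rRNA precursor, had 4 of 7 tested subunit genes lower and none higher. These were ker1, from 124 and 106 to 77.3 and 73.6 FPKM, the large subunit gene nuc1, from 57.3 and 54.5 to 38.4 and 40.4 FPKM, rpa2, from 85.9 and 78.1 to 63.5 and 65.0 FPKM, and rpa43, of which 90.5% is overlapped. The call of rpa43 was lost without untreated replicate 1 (-0.31) or rapalink-1 replicate 1 (-0.33) and in DESeq2 (adjusted p = 0.134). Among the 10 genes of the RNA polymerase III list 5 were lower, with rpc2 at -0.41, rpc53 at -0.37 and rpc25 at -0.29 on the log2 scale, and the gene that rose was the repressor gene maf1. Of 5 tested polymerase II subunit genes only rpb11 passed, at a log2 fold change of 0.11 (adjusted p = 0.0491), and it missed the threshold in 13 alternatives.

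Genes of the stress response rose broadly. Of 32 tested, 23 were higher (6 by at least 2-fold) and 1 lower, with a median log2 fold change of 0.56. The gene of the tyrosine phosphatase Pyp2, which switches off the stress kinase Sty1, rose from 13.7 and 14.9 to 51.5 and 57.7 FPKM (28.1 and 31.3 with rapamycin). The metallothionein gene zym1 rose from 108 and 119 to 321 and 336 FPKM, the disaggregase gene hsp104 from 89.9 and 101 to 267 and 264 FPKM and the small heat shock gene hsp16 from 217 and 269.6 to 562 and 715 FPKM. The CRE core TGACGT, which reads ACGTCA on the other strand and is bound by the stress factor Atf1, stood in 21.9% of the windows of the 32 genes and in 5.38% of all tested coding genes. Of 66 tested heat shock proteins and chaperones 18 were higher, which is 27.3% and near the 24.8% of all tested genes. Another 24 were lower, which is 36.4% beside 22.5%. Those that rose most were, besides hsp104 and hsp16, the Hsp70 gene ssa1, from 167 and 180.4 to 513 and 541 FPKM, and hsp9, from 963 and 1109 to 1799.9 and 1895 FPKM. In the list of Ecl and Rsv genes, which are linked to chronological lifespan in fission yeast, 2 of 4 were higher. The zinc finger gene rsv2 (37.2% overlapped) rose from 12.1 and 15.1 FPKM untreated to 66.2 and 63.7 FPKM with rapalink-1 and 36.2 and 42.1 FPKM with rapamycin. ecl1 stood at 9.98 and 10.9 FPKM untreated, 12.99 and 12.9 FPKM with rapalink-1 and 26.4 and 24.5 FPKM with rapamycin, so that rapalink-1 lay below rapamycin (log2 difference -0.92, SE 0.07, adjusted p = 3.59e-05). Its call against untreated was lost without untreated replicate 1 (0.23) and under quantile normalization (0.18). ecl2 (61.1 and 66.6 against 64.5 and 71.7 FPKM) and ecl3 (46.4 and 73.4 against 71.7 and 75.8 FPKM) did not pass, though ecl3 did when untreated replicate 2 was left out (0.66), and rsv1 is listed at 0. Of 42 proteasome genes 17 were higher, 2 lower and 23 neither, with a median of 0.07, and under quantile normalization this turned to 9 higher and 11 lower. Without rapalink-1 replicate 1, 10 were higher. Of the core, pup1 rose from 149 and 154 to 197 and 186.4 FPKM, and of the regulators nas6 by 0.40, fub1 by 0.77 (57.1% overlapped) and fub2 by 1.19 (79.0% overlapped) on the log2 scale.

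In carbon metabolism the most abundant glycolytic mRNAs did not pass the test. These were tdh1 (8605 and 8601 FPKM untreated, 8167 and 8406 with rapalink-1), gpm1 (8172 and 8147 against 8108 and 8379), fba1 (8214 and 8386 against 7781 and 7955), eno101 (5920.0 and 5981 against 5660.3 and 5942) and tpi1 (5711 and 5626 against 5971 and 6076). Under quantile normalization tpi1, gpm1 and fba1 passed, with log2 fold changes of 0.31, 0.07 and -0.07, and tpi1 also passed in the fit of the 2 conditions alone and without either rapamycin library (0.09 in each). The ubiquitin and ribosomal protein fusion gene ubi3, also among the 6 most abundant, fell from 6839.6 and 6947 to 5724 and 5779 FPKM, and each of the 4 libraries was needed for its call (-0.27 to -0.25 without them). Over the glycolysis list 6 of 19 were higher and 2 lower, but 2 and 2 without untreated replicate 1, 8 and 5 without either rapamycin library or in the fit of the 2 conditions alone, and 7 and 5 in DESeq2. In the main fit 31.6% of the glycolysis list were higher and 10.5% lower, beside 24.8% and 22.5% of all tested genes. The called genes include gpd3, from 443 and 508 to 654 and 783 FPKM (33.1% overlapped), the isoform genes eno102, from 0.559 and 0.654 to 3.25 and 2.49 FPKM (78.5% overlapped), and pdc102, from 0.84 and 1.49 to 2.44 and 2.02 FPKM, and the alcohol dehydrogenase gene adh4, which fell from 143 and 145 to 102 and 106 FPKM. The call of pdc102 was lost without untreated replicate 1 (0.37) or rapalink-1 replicate 1 (0.50) and under quantile normalization (0.41). Of 19 citric acid cycle genes 9 were higher and 1 lower. Malate dehydrogenase (mdh1) rose from 231 and 244 to 365 and 353 FPKM, and the isocitrate dehydrogenase genes idh1 and idh2 by 0.46 and 0.45 on the log2 scale. Citrate synthase (cit1) rose by 0.29, and its difference from rapamycin was -0.06 (95% interval -0.17 to 0.04). Respiratory chain and ATP synthase genes rose in 22 of 41 cases with 1 lower. The cytochrome c oxidase gene SPCC417.16 led, from 204 and 232 to 359 and 365 FPKM, followed by the NADH dehydrogenase gene nde1 (0.49), cox7 (0.42) and cox12 (0.34, 28.4% overlapped). Of 7 tested hexose transporter genes 5 were higher and none lower, and under quantile normalization 5 were higher and 2 lower. The high-affinity glucose transporter gene ght5 rose from 295 and 306 to 447 and 564 FPKM, and the less abundant ght1, ght3, ght4 and ght7 had log2 fold changes from 0.69 to 0.89, with 57.8% of ght4 and 27.5% of ght1 overlapped. The genes ght8 (784 and 756 against 689 and 751 FPKM) and ght2 (219 and 201 against 208 and 197 FPKM) did not pass, but under quantile normalization both were lower (-0.21 and -0.14), and ght6 is listed at 0.

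Among other nutrients, 4 of 6 genes of the phosphate list rose and most vitamin genes fell. The acid phosphatase gene pho1 rose from 104 and 126 to 413 and 345 FPKM, the phosphate transporter gene pho84 from 235 and 269.8 to 426 and 394 FPKM and the glycerophosphodiester transporter gene tgp1 from 8.78 and 11.03 to 40.5 and 34.9 FPKM. SPBPB2B2.05, a predicted peptidase gene counted with the same list, went from 3.25 and 2.44 to 21.6 and 17.3 FPKM. The gene of Pho7, the activator of pho1, pho84 and tgp1, moved the other way, from 34.4 and 34.4 to 26.5 and 27.0 FPKM. The last member, csk1 (43.7 and 44.3 against 45.8 and 42.3 FPKM), did not pass. In the thiamine and vitamin list 9 of 12 were lower and none higher. The vitamin B6 importer gene bsu1 fell from 101 and 92.4 to 50.2 and 47.8 FPKM and the biotin importer gene vht1 from 444 and 455 to 240.3 and 276 FPKM, and both were among the 12 coding genes that fell most. The thiamine-regulated phosphatase gene pho4 fell from 139 and 135 to 94.9 and 99.2 FPKM. Log2 fold changes of bio2 (biotin synthase), thi4, thi5, thi9 and snz1 were -0.34, -0.30, -0.32, -0.43 and -0.22, with 37.7% of thi4 and 34.9% of thi9 overlapped. pdx1, of the pyruvate dehydrogenase complex, had -0.14, and its call was lost without untreated replicate 2 (-0.11) or rapalink-1 replicate 1 (-0.13). It was also lost without the trend and in DESeq2 (adjusted p = 0.0573). Not past the test were thi1 (-0.11), thi2 (0.05) and tnr3 (0.05, 43.8% overlapped), and nmt1 and liz1 are listed at 0. Of 13 tested iron uptake genes 4 were higher and 1 lower, with a median log2 fold change of 0.01 that was -0.08 under quantile normalization. That is 30.8% higher and 7.69% lower, beside 24.8% and 22.5% of all tested genes. The hydroxylase gene for ferrichrome, sib2, rose from 65.6 and 66.7 to 92.9 and 105.1 FPKM, and the iron permease gene fip1 from 10.1 and 11.4 to 15.4 and 15.3 FPKM. Smaller increases of sib1 (0.32) and of the repressor gene fep1 (0.26) lost their calls without either untreated replicate 1 (0.28 and 0.15) or rapalink-1 replicate 1 (0.34 and 0.16), among others, which left 2 higher. The log2 fold change of php4, which fell, was -0.25. The other 8 tested (fio1, frp1, frp2, pcl1, ctr4, ctr5, str1 and str2) had log2 fold changes from -0.11 to 0.25, with 44.3% of ctr5 and 58.7% of str2 overlapped, and shu1 and str3 were under the filter. Amino acid biosynthesis leaned down, with 23 of 52 lower and 13 higher (15 and 8 without untreated replicate 1). Within it argininosuccinate synthase (arg12) rose from 239 and 243 to 479 and 442 FPKM, and the sulfur amino acid genes met17 and SPCC1739.06c rose by 0.53 and 0.60, while the homoserine kinase gene thr1 fell from 57.9 and 59.4 to 42.2 and 40.4 FPKM. Over all 171 tested genes described as transmembrane transporters or permeases, 70 were higher, 21 by at least 2-fold, and 42 lower.

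Changes in cell cycle, sterol and cell wall genes were small. Of 11 tested core histone genes 6 were higher and none lower, with hht2 from 729 and 701 to 1000.1 and 941 FPKM and hhf1 from 1352 and 1298 to 1806 and 1763 FPKM, and with hht1 and hta2 at 0.29 and 0.27 on the log2 scale. Of 41 tested DNA replication genes 12 were lower, which is 29.3% and near the 22.5% of all tested genes. Only 1 was higher, which is 2.44% beside 24.8%. Fewer were lower without untreated replicate 1. Those that fell most were mcm3 of the replicative helicase, from 49.5 and 48.3 to 37.2 and 37.2 FPKM, and the polymerase genes spb70, cdc1 and cdc6 (62.6% overlapped), at -0.34, -0.32 and -0.34. The call of cdc6 was lost without either untreated library or rapalink-1 replicate 1 (-0.37 to -0.20) and with no filter (-0.34). Among 37 mitosis and cytokinesis genes 6 were higher and 4 lower, a balance that turned to 4 and 6 under quantile normalization, without rapalink-1 replicate 1 there were 3 higher, and without untreated replicate 1 there was 1 lower. In the main fit 16.2% of the mitosis list were higher and 10.8% lower, both under the shares of all tested genes. The spindle pole gene sad1 rose from 31.0 and 29.8 to 38.4 and 38.8 FPKM, with the anaphase-promoting complex genes apc2 and apc11 (47.1% overlapped) and the checkpoint ligase gene dma1 at 0.34, 0.31 and 0.31. The call of apc11 was lost without untreated replicate 1 (0.29) or rapalink-1 replicate 1 (0.31) and in DESeq2 (adjusted p = 0.0757). In ergosterol synthesis 3 of 11 were lower (27.3%, near the 22.5% of all tested genes) and 1 higher (9.09% beside 24.8%): erg4 at -0.29, erg1 at -0.19, erg11 at -0.17 and erg5 at 0.25 on the log2 scale. The call of erg5 was lost under quantile normalization (0.08). Without untreated replicate 1, 1 was lower, since erg1 (-0.15) and erg11 (-0.16) lost their calls, and erg1 also lost its call without rapalink-1 replicate 1 (-0.16). Of 16 glucan enzymes of the cell wall 2 were lower (bgs3 at -0.32, bgs4 at -0.18) and 1 higher (gas2 at 0.26, 89.0% overlapped), which edgeR turned to 2 lower and 3 higher. In the main fit that is 12.5% lower and 6.25% higher, both under the shares of all tested genes. The call of bgs4 was lost without untreated replicate 2 (-0.16) or rapalink-1 replicate 1 (-0.12).

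Of the 12 coding genes with the largest decreases, 6 are described as transporters or import carriers. Among all 4847 tested genes, 171 are described as transmembrane transporters or permeases. Besides cat1, bsu1 and vht1, they include the transporter genes avt5 (vacuolar amino acid transport, 46.6% overlapped), from 9.14 and 10.3 to 5.08 and 6.21 FPKM, mug111, from 19.7 and 18.7 to 11.3 and 11.9 FPKM, and SPAC186.05c, from 24.2 and 23.9 to 13.7 and 16.03 FPKM. Enzymes among them were the sorbose reductase SPAC8E11.10 (-0.70), the asparaginase SPAC977.12 (-0.70), adenine phosphoribosyltransferase (apt1, from 521 and 498 to 311 and 331 FPKM), the TENA/THI family gene SPBC530.07c (-0.64) and the pseudouridine synthase gene pus1 (-0.64). SPAC20G4.09, a short gene specific to fission yeast, went from 25.4 and 28.9 to 11.2 and 20.3 FPKM with uneven rapalink-1 libraries, and its call was lost without untreated replicate 2 (-0.71) and with edgeR and DESeq2 (adjusted p = 0.0726 and 0.183). It was also lost with no filter and without the trend (-0.80 in each).

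Position on the chromosomes was examined next. Subtelomeric regions of fission yeast lie next to silenced chromatin and hold many stress and nutrient genes. Of 83 tested coding genes within 100 kb of the first or last gene of chromosome I or II, 49 were higher, 21 by at least 2-fold, and 9 were lower, with a median log2 fold change of 0.51. All 4 ends showed more genes higher than lower: 10 against 1 and 14 against 2 on chromosome I, and 9 against 5 and 16 against 1 on chromosome II. Within 200 kb the count was 98 higher and 33 lower of 214, and within 50 kb 15 higher and 1 lower of 32. The rise did not stop at 100 kb on the last arm of chromosome I, where isp5 lies 110.5 kb from the last gene, mmf2 (a predicted relative of an isoleucine synthesis factor, from 4.61 and 4.63 to 84.6 and 76.3 FPKM) 107.6 kb and SPAC1039.02 (a predicted phosphatase, from 136 and 167 to 1355 and 1069.8 FPKM) 127.5 kb from it. Counting runs of at least 3 neighbouring tested coding genes that were all higher by 1.5-fold gave 12 runs, which held 53 of the 280 coding genes with such a rise. These runs were looked for after the values were seen. Besides the urg cluster, 3 others had 6 genes. They include SPAC869.04 and SPAC869.03c (chromosome I, 5492902 to 5514865), eno102 (chromosome II, 58136 to 77625), and amt1 with xan1 (chromosome III, 2068977 to 2085706). The run of 4 from 4444125 to 4459842 on chromosome II joins pho84, pho1, fub2 and SPBPB2B2.01. The wtf genes, a family of meiotic drivers that are spread over chromosome III, had 16 of 20 higher (8 of 9 when only means of at least 10 FPKM were kept) and none lower, for example wtf5 from 6.01 and 7.17 to 14.5 and 13.3 FPKM and wtf20, wtf23 and wtf8 by 0.79, 0.67 and 0.58 on the log2 scale. The family members are near-identical in parts, so reads may be divided between them, and the call of wtf8 was lost without replicate 2 of either group (0.40 to 0.41). Of 4 tested retrotransposon genes none passed against untreated, and 3 were lower than with rapamycin.

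**Figure D5:**
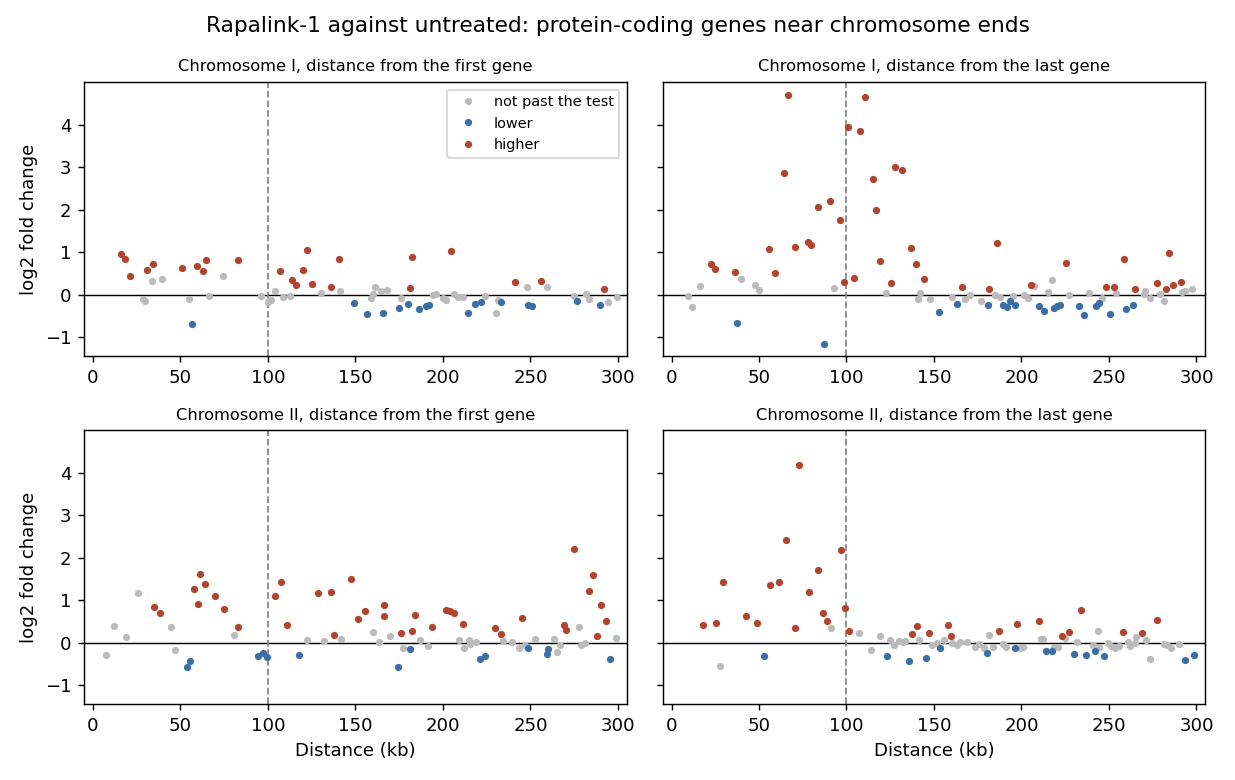
Log2 fold change of the tested protein-coding genes (y) against the distance in kb from the first or last gene (x) of chromosomes I and II, with red for higher, blue for lower and grey for genes not past the test; the dashed line marks 100 kb. Of the 83 genes left of the dashed lines 49 are red, and the last arm of chromosome I holds genes that reach 4.70 and 4.65.

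Of 1534 non-coding RNAs, 474 passed the filter and 115 were higher (20 by at least 2-fold), which is 24.3% beside 24.8% of all tested genes, and 32 were lower, which is 6.75% beside 22.5%. The median log2 fold change was 0.10, but quantile normalization turned this to 78 higher and 80 lower (median -0.05). DESeq2 called 69 and 13, and without untreated replicate 1 or rapalink-1 replicate 1 there were 18 and 19 lower. The largest change was that of omt3, an intergenic RNA of known name, which stood at 1.39 and 1.94 FPKM untreated, 9.37 and 9.83 FPKM with rapamycin and 71.8 and 58.4 FPKM with rapalink-1 (log2 fold change 4.64, SE 0.12, adjusted p = 7.97e-08). SPNCRNA.178 rose from 6.69 and 6.55 to 37.5 and 31.7 FPKM. SPNCRNA.935 rose from 0.202 and 0.242 to 10.5 and 9.25 FPKM, but other models cover 94.4% of it. Those that fell most were SPNCRNA.1444, from 9.61 and 9.73 to 3.91 and 5.49 FPKM, SPNCRNA.1442, from 14.9 and 18.1 to 10.7 and 10.2 FPKM, and SPNCRNA.630 and SPNCRNA.779, with log2 fold changes of -0.72 and -0.70 and with 43.0% and 39.6% overlapped. PolyA selection leaves little of the structural RNAs, and these are given for completeness. Of 13 tested rRNA genes 3 were lower and 1 higher, of 13 snoRNA genes 3 lower and 2 higher, of 16 pseudogenes 6 higher and 1 lower, and of 2 snRNA genes 1 was higher. None of the 379 tRNA genes passed the filter, so tRNA levels were not measurable here. The 18S rRNA copy SPRRNA.43, singled out after its values were seen, had a log2 fold change of -2.08, but its untreated libraries stood at 104.6 and 20.6 FPKM and its rapalink-1 libraries at 7.52 and 13.8 FPKM.

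Rapalink-1 and rapamycin were compared directly at the matched dose of 100 nM and time of 5 h, in the same fit and over all 4847 genes. The molecules share rapamycin and differ by the sapanisertib that rapalink-1 carries on a linker. Of the 4847 genes 957 were higher and 845 lower with rapalink-1. Among the lists, the median log2 difference was large in pyrimidine salvage (2.69, 7 of 7 higher), the peptide transport list (1.79, 4 of 4 higher, with isp7 at 2.36, isp4 at 4.12, ptr2 at 1.22 and pgt1 at 0.47), M-cell genes (1.35, 4 of 4 higher) and, in the other direction, in ribosome biogenesis (-0.36, 74 of 94 lower) and the thiamine and vitamin list (-0.32, 8 of 12 lower). Proteasome genes were higher than with rapamycin in 26 of 42 and respiratory genes in 24 of 41, beside 19.7% of all tested genes. With rapamycin against untreated, 8 proteasome genes were lower and 1 higher (median log2 fold change -0.09), and 5 respiratory genes were lower and none higher (median -0.04). These differences between the drugs therefore hold falls with rapamycin as well as rises with rapalink-1. Intervals show where a difference was not resolved. For the GATA-type factor gene SPCC1393.08 the drugs differed by -0.01 on the log2 scale (95% interval -0.14 to 0.12), for toc1 by -0.03 (-0.15 to 0.09), for ght7 by 0.11 (-0.20 to 0.41) and for wtf20 by 0.20 (-0.05 to 0.45). For wtf20, the rapamycin libraries stood at 6.31 and 6.03 FPKM and the rapalink-1 libraries at 7.28 and 7.17 FPKM, from 3.44 and 4.12 FPKM untreated. Only 2 of 20 wtf genes differed between the drugs past the test, both higher with rapalink-1. Both drugs were set against the same 2 untreated libraries, so their fold changes against untreated are not independent of each other.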

How the data were processed

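Poly(A)-selected RNA was sequenced as paired-end Illumina libraries. The submitters' processing notes name HISAT2 2.0.5, StringTie 1.3.3b, featureCounts 1.5.0-p3 and DESeq2, and the build, annotation and strand setting are not given in the sources used here. The authors deposited FPKM per gene and library for 7268 genes, and read counts for only the genes listed in their comparisons (2398 to 2543 genes a library). The deposited FPKM used library constants that follow DESeq2 size factors, and whole reads recovered from them (tolerance 0.001) equalled the deposited counts in 100% of the genes that have one. Deposited fold changes, p-values and adjusted p-values of the authors' comparisons were not used. 

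Genes with a mean of at least 1 FPKM over the 6 libraries were kept, values were scaled between libraries, and log2(FPKM + 1) was fitted for the 3 groups together in limma 3.58.1 (R 4.3.3, moderated variances with a trend). Benjamini-Hochberg adjusted p-values of at most 0.05 were called. The procedure was also run on simulated reads in which most genes were left unchanged. That run does not show how it performs when many genes shift, as they did here. Samples were grouped by their labels. No pairing by replicate number was used. The correlation of deviations between same-numbered libraries lay between -0.01 and 0.04. Such values show no shared deviation, but same-numbered libraries could still share a mother culture with a small effect.

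Members, the 43 gene lists and the tests were chosen with earlier results of these data known. Lists came from symbols or words in the descriptions, with symbols matched through RefSeq (6846 identifiers matched), and chromosome ends were taken as 100 kb. The genes named were the 12 coding and 4 non-coding genes with the largest change each way (mean of at least 5 FPKM, no overlap between groups), every member of lists of up to 16 symbols, up to 4 members of each longer list, tor1, tor2, fkh1, gaf1, ste11, mei2 and the 6 most abundant genes. Upstream bases came from RefSeq on ASM294v3. Alternatives were a pseudocount of 0.1, no filter or a mean of at least 10 FPKM, no scaling or quantile scaling, fits of only the groups compared, of coding genes only, without the trend, with the replicate number as a block or without each library, ends of 50 and 200 kb, and, on the recovered reads, edgeR 4.0.16 and DESeq2 1.42.0. Tables and figures were made in Python 3.11.15 with pandas 2.3.3.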

Additional observations from a re-analysis of the deposited data

How the results depend on the processing

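Over the alternatives between 1687 and 2431 genes were called between rapalink-1 and untreated, against 2291, and leaving out 1 library gave 1687 to 2143. For rapalink-1 against rapamycin leaving out 1 library gave 1275 to 1729, against 1802. edgeR called 2320 and DESeq2 1920 genes against untreated. The labels do not say whether the numbers pair the libraries, and with the replicate number as a block 2288 and 1791 genes were called. Quantile normalization moved the balance to lower genes in proteasome (9 higher, 11 lower), mitosis and cytokinesis (4 higher, 6 lower), non-coding RNA (78 higher, 80 lower) and all protein-coding genes (856 higher and more lower, against 1075 and 1052). Protein-coding genes also turned to 1056 higher and 1081 lower without scaling and to 1074 and 1101 in edgeR. Glucan enzymes turned to 2 lower and 3 higher in edgeR and to 1 lower and 2 higher without untreated replicate 2. Of the 219 named genes tested, 183 were called, 164 kept the call in every alternative, 19 lost it in at least 1 and none changed direction. Of those not called, 10 passed in at least 1 alternative: SPBC24C6.04, pop3, sxa1, ght2, ght8, ctr4, gpm1 and fba1 under quantile normalization, tpi1 there and in 3 others, and ecl3 without untreated replicate 2. No cause was tested.

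With 2 libraries a group, each call rests on a variance shared across genes. Low genes are limited by the pseudocount, and overlapped models by the counting.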
